A study of Gallus gallus with 10 samples.

Results

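The experiment compares duodenal crypts of laying hens fed the pair L. sa. + L. ag. with crypts of hens fed the basal diet, by RNA sequencing. Its members are 5 of the series' 10 libraries, chosen by their titles: 2 of L. sa. + L. ag. and 3 of basal diet, called control here. All hens were brown Hy-Line birds at peak egg production and were on their diets for 30 days. The pair-fed birds received the bacteria daily with the same base diet. The abbreviations are those of the labels, and the title of the series names Lactobacillus salivarius and Lactobacillus agilis. The other 5 pair-fed libraries serve here as the background of pair feeding. They are 2 of L. sa. + L. av., 2 of L. ag. + L. av. and 1 of unclear pair, whose title and description name different pairs. By neither label is that library L. sa. + L. ag., so it counts with the 5. The labels name no hen for any library, so p-values measure the spread between libraries, which may be technical.

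Crypts are the pits of the intestinal lining, where stem cells divide and replace the epithelium. Paneth cells, which secrete antimicrobial proteins, sit beside the stem cells and supply signals to them. Lactobacilli are gut bacteria that ferment sugars to lactic acid and are fed to poultry as probiotics. The deposited table gives feature identifiers and pairs none with a gene symbol, and 0 of the identifiers matched the reference gene table. Features are therefore given by identifier and length, with no gene name, role or sequence. Markers of crypt cells or of other cell types were not tested, so the labelled tissue was not checked against them. In bulk samples such as these, fewer cells of a type and less RNA per cell cannot be told apart.

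Values are FPKM, fragments scaled to feature length and to a total per library. That total was 0.572 to 1.28 times the reads recovered as described below, so it is not a count of those reads. How it was set was not given. Features at 1 FPKM or more in at least 2 of the 5 libraries were tested, 11098 of 19561. Of these, 9747 have Ensembl identifiers and 1351 have the authors' own numbered ones. Low FPKM values are whole multiples of a step set by the feature's length, which gave lengths and whole reads. The L. sa. + L. ag. libraries held 17.64 M and 16.41 M recovered reads, and the other pair-fed libraries 15.3 M to 17.6 M. Control libraries held 21.7 M to 23.7 M, with no overlap. The mean depth of 17.0 ± 0.87 M reads (SD, n = 2) against 22.4 ± 1.13 M (SD, n = 3) gave a 2-sided exact permutation p of 0.2, and the 10 possible splits cannot reach 0.05. Depth and diet thus differ together, and the part of depth in any result was not tested.

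The 2 L. sa. + L. ag. libraries were not alike. Replicate 1 scored -16.7 on the first principal component (52.1% of the variance), between the control libraries at -78.5 to -44.6 and replicate 2 at 38.4. On the third component (9.81%) replicate 1 lay alone at -48.7, where the other 9 libraries scored -14.6 to 20.4. Across the 11098 features, 23.0% differed at least 2-fold between the replicates, 999 higher in replicate 1 and 1554 higher in replicate 2. This was not particular to the pair. The share was 26.9% between the L. ag. + L. av. replicates, 11.3% between those of L. sa. + L. av. and 3.96% to 23.5% between control libraries. The L. ag. + L. av. replicates also lay further apart on the first component, at -18.2 and 66.8. L. sa. + L. ag. replicate 2 was closer to 4 of the libraries of other pairs than to its own replicate. It differed at least 2-fold from L. sa. + L. av. replicate 1 in 5.88% of features and from the library of unclear pair in 6.43%. Replicate 1 was closest to L. ag. + L. av. replicate 1, with 11.1% of features at least 2-fold apart. By this share, control replicates 2 and 3 were also closer to it (17.6% and 17.2%) than its own replicate was. Control replicate 1 was not (25.9%). By the Pearson correlation its own replicate was slightly closer, at 0.923 against 0.921 and 0.922 for control replicates 2 and 3. Over all tested features the median SD on the log2(FPKM + 1) scale was 0.39 within L. sa. + L. ag., 0.32 within control and 0.40 over the other pair-fed libraries. The comparisons that follow share the same L. sa. + L. ag. libraries and are not independent of each other.

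**Figure D1:**
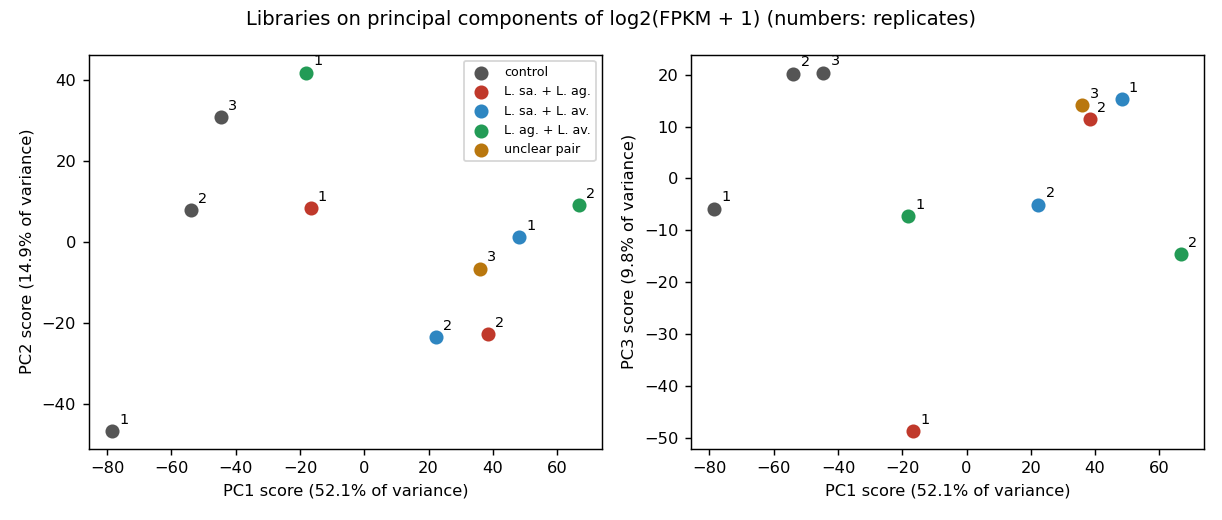
Scores of the 10 libraries on the first 3 principal components of log2(FPKM + 1) over the 11098 tested features; each point is a library, coloured by diet, with its replicate number. L. sa. + L. ag. replicate 1 (-16.7) and replicate 2 (38.4) lie apart on the first component, and replicate 1 stands alone at -48.7 on the third. The L. ag. + L. av. replicates lie further apart on the first component, at -18.2 and 66.8.

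The feature that set the pair apart was ENSGALG00000028577, of 460 bp. It was nearly absent with L. sa. + L. ag. and present in each of the other 8 libraries. L. sa. + L. ag. replicate 1 held 0 reads of it, which allows up to 0.436 FPKM (3 reads, counting error only), and replicate 2 held 8 reads, or 1.18 FPKM. Control libraries had 12.5, 9.73 and 9.74 FPKM, on 175, 120 and 74 reads. With L. sa. + L. av. it was at 19.9 and 19.0 FPKM, with L. ag. + L. av. at 24.6 and 34.0 FPKM, and in the library of unclear pair at 11.8 FPKM. No value of L. sa. + L. ag. came near the lowest of the other 8 libraries, 9.73 FPKM.

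Against the 5 other pair-fed libraries (mean 21.9 FPKM), the mean of 0.590 FPKM for ENSGALG00000028577 was 37.0-fold lower. The log2 fold change was -3.88 ± 0.35 (SE, 95% interval -4.66 to -3.09, limma adjusted p = 0.0094). Against control the ratio was 18.1 and the log2 fold change -2.97 ± 0.38 (SE, limma adjusted p = 0.035). Against L. ag. + L. av. it was -4.34 ± 0.42 (SE, limma adjusted p = 0.017), and against L. sa. + L. av. -3.79 ± 0.42 (SE, limma adjusted p = 0.056). ENSGALG00000028577 met the filter on low values only through the control libraries, where it is high. Its difference from control is thus a description. The direction was the same in every alternative tried. The size was not: against the other pair-fed libraries it was -5.86 with a pseudocount of 0.1, which sets how far below 1 FPKM a value can count. The call against control was lost without any 1 of the 5 libraries compared (limma adjusted p = 0.095 to 0.24), without any 1 library of L. sa. + L. av. or L. ag. + L. av. (0.054 to 0.089), with a pseudocount of 0.1 (0.17), no filter (0.14), voom weights (0.28), a replicate block (0.24) and in a fit of only these libraries (0.12). The call against the other pair-fed libraries was lost without L. sa. + L. ag. replicate 1 (limma adjusted p = 0.17), which leaves the library with 8 reads. It was lost too without L. ag. + L. av. replicate 2 (0.055), L. sa. + L. av. replicate 1 (0.059) or L. sa. + L. av. replicate 2 (0.056), and held without L. ag. + L. av. replicate 1 (0.043). It was also lost with a pseudocount of 0.1 (0.26), with limma's voom weights on the recovered reads (0.47), with a replicate block (0.11) and in a fit of only the compared libraries (0.10).

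**Figure D2:**
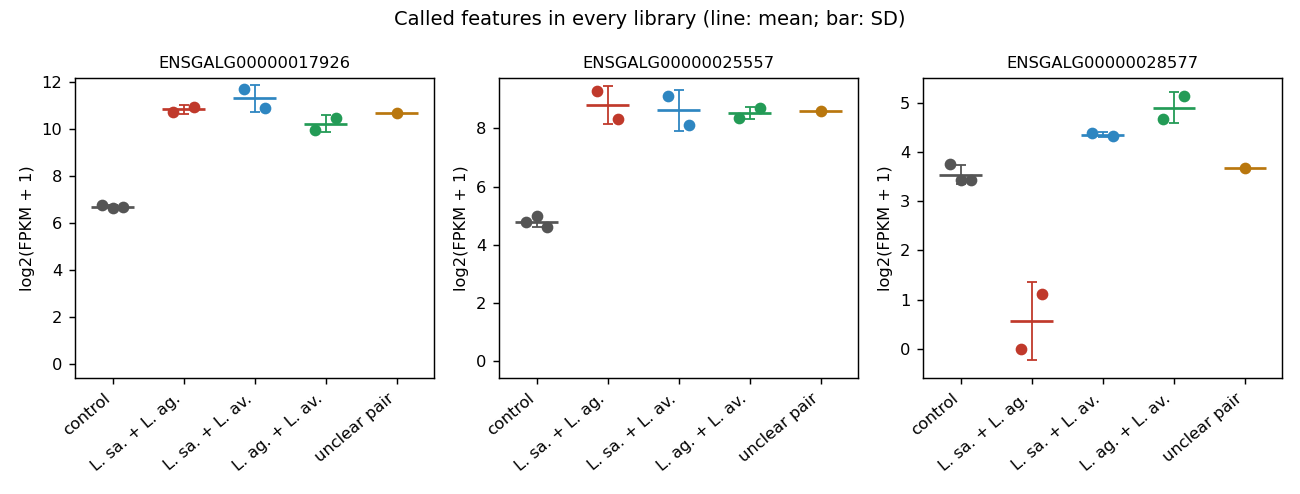
log2(FPKM + 1) of 3 features called against control, in each of the 10 libraries by diet; points are libraries, lines are group means and bars are the SD. ENSGALG00000017926 and ENSGALG00000025557 are high in all 7 pair-fed libraries, while ENSGALG00000028577 is low in the 2 L. sa. + L. ag. libraries alone, at 0 and 1.18 FPKM.

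In the opposite direction, a feature of 1374 bp with an identifier of the authors' own was read almost only in L. sa. + L. ag. It was picked after its values were seen. On the log2(FPKM + 1) scale, no other feature had both L. sa. + L. ag. libraries at least 2-fold above all 8 others. Replicates 1 and 2 held 30 and 47 reads, or 1.46 and 2.32 FPKM, and the 8 other libraries held 0 or 1 read each. All control libraries were at 0. The log2 fold change was 1.5 ± 0.24 (SE) against the other pair-fed libraries (limma adjusted p = 0.36) and 1.52 ± 0.26 (SE) against control (limma adjusted p = 0.14). It did not pass in either comparison, and at these levels the fitted size depends on the pseudocount. It met the filter on low values only through the 2 L. sa. + L. ag. libraries, where it is high, so these differences are descriptions.

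On the log2(FPKM + 1) scale, a gap of at least 2-fold to all 8 other libraries was rare for each pair. L. sa. + L. ag. had these 2 features, 1 above and 1 below, L. sa. + L. av. had 2 above and 0 below, and L. ag. + L. av. had 3 above and 0 below. Without regard to the gap, both L. sa. + L. ag. libraries lay above all 8 other libraries for 78 features (0.703%) and below all 8 for 129 (1.16%), together 1.87% of the 11098 tested. The gap to the nearest other library was small, with a median of 0.11 log2 units for the former and 0.10 for the latter. The same count for the 2 libraries of L. sa. + L. av., over 11084 features filtered in the same way, was 145 above and 182 below. For L. ag. + L. av. it was 238 above and 168 below, of 11205. For these 2 pairs the 8 other libraries include the library of unclear pair, which by its labels belongs to 1 of them. L. sa. + L. ag. has no such library among its 8. The counts of the pairs, with and without the gap, are thus not on equal terms. Features above all 8 had a median length of 1547 bp, against 1964 bp for all tested, and 20 of 78 (25.6%) had the authors' own identifiers, against 12.2% of all tested. Features below all 8 had a median length of 2245 bp, and 11 of 129 (8.53%) had such identifiers. These sets are defined by their values, so the shares are descriptions.

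Set against the 5 other pair-fed libraries over all tested features, L. sa. + L. ag. differed little. Limma called ENSGALG00000028577 alone, 0.00901% of features tested, and 316 features (2.85%) had an unadjusted p under 0.05. Of these 316, 250 were lower (2.25%) and 66 higher (0.595%). At least 2-fold differences in the fit were also mostly lower, 318 against 57. Without L. sa. + L. ag. replicate 2 the number at an unadjusted p under 0.05 was 936, and without replicate 1 it was 191. The median over all features was 0.00 on the log2 scale and the median SE 0.38. Against control that median was also near 0, at -0.01, so it is no measure of how alike the libraries are.

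The groups did not overlap for 740 features, 6.67% of those tested, with 329 higher (2.96%) and 411 lower (3.7%) in L. sa. + L. ag. than in the other 5 pair-fed libraries. Their place against the control range varied. Of the 329 higher features, 121 had both L. sa. + L. ag. libraries inside the control range, 78 had both above it and 51 both below it. Of the 411 lower features, 166 had both inside the control range, 129 both below it and 20 both above it. In the rest, the 2 libraries lay on different sides of a control limit. In 287 of these 740 features the L. sa. + L. ag. values were within the range of the basal diet. The other pair-fed libraries lay apart from L. sa. + L. ag. in all 740 by the way these were chosen. Over all 11098 tested features, both L. sa. + L. ag. libraries lay above the control range for 21.3% and below it for 19.0%. The share of all tested with both inside that range was not computed. Whether the 287 exceed that share is thus not known, and these counts are descriptions.

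The comparison with L. sa. + L. av., which shares L. sa., called 0 features in limma. Before adjustment, 150 (1.35%) had a p under 0.05, and voom weights on the recovered reads gave 0 calls. Beside ENSGALG00000028577, the lowest feature by the naming rule was one of 963 bp with the authors' own identifier. It was at 14.9 and 11.6 FPKM with L. sa. + L. ag., on 215 and 165 reads, and at 29.9, 14.1 and 13.9 FPKM in control. It was at 264 and 25.7 FPKM with L. sa. + L. av., at 45.7 and 122 FPKM with L. ag. + L. av. and at 45.6 FPKM in the library of unclear pair. The 2 L. sa. + L. ag. values thus lay in or just under the control range and below all 5 other pair-fed libraries. The log2 difference was -2.57 ± 0.93 (SE) from L. sa. + L. av. and -2.34 ± 0.77 (SE) from the 5 libraries, and neither passed (limma adjusted p = 0.999 and 1.00). The former rested on L. sa. + L. av. replicate 1, and was -0.91 without it.

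The 2 highest features of that comparison were very short and rested on few reads. ENSGALG00000024758, of 72 bp, had 28.8 and 6.60 FPKM with L. sa. + L. ag., on 31 and 7 reads, against 1.03 and 0 FPKM with L. sa. + L. av., on 1 and 0 reads. With L. ag. + L. av. it had 19.4 and 21.2 FPKM, so that L. sa. + L. av. was the low pair. ENSGALG00000025390, of 83 bp, had 9.66 and 15.5 FPKM with L. sa. + L. ag., on 12 and 19 reads. Its 8 other libraries held 0 to 10 reads and at most 7.29 FPKM, below both L. sa. + L. ag. values. Neither feature passed in any comparison (limma adjusted p of 0.29 or more).

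The comparison with L. ag. + L. av., which shares L. ag., called ENSGALG00000028577 alone, lower, 0.00901% of features tested. In all, 399 features (3.6%) had an unadjusted p under 0.05, of which 322 were lower (2.9%) and 77 higher (0.694%). The limma adjusted p of that feature was 0.073 with a replicate block, 0.25 when only the compared libraries were fitted, 0.50 with voom weights and 0.59 at a pseudocount of 0.1. The call was also lost without L. sa. + L. ag. replicate 1 (limma adjusted p = 0.14) and without control replicate 2 (0.052), which enters only through the shared estimate of the spread. Without any 1 library of L. sa. + L. av. or L. ag. + L. av. it was lost as well (0.076 to 0.16).

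Against control, the medians of short and of abundant features lay above 0 and those of long ones below 0, in both replicates. The medians of features scarce in the other pair-fed libraries lay below 0 too, but the filter and that choice of classes bear on them. Limma called 6 features (0.0541% of 11098), 5 higher (0.0451%) and 1 lower (0.00901%). Of these, ENSGALG00000028016, ENSGALG00000028577 and a feature of 5100 bp met the filter on low values only through the group where they are high. Before adjustment, 1839 features (16.6%) had a p under 0.05, 1036 of them higher (9.34%) and 803 lower (7.24%). The groups did not overlap for 4469 features (40.3%), 2364 higher (21.3%) and 2105 lower (19.0%). At least 2-fold changes in the fit numbered 1384 higher and 576 lower. Counted library by library, replicate 2 had 2186 features (19.7%) at least 2-fold above the control mean and 1261 (11.4%) at least 2-fold below it. Replicate 1 had fewer, 1064 (9.59%) and 658 (5.93%). Control replicate 1 itself lay at least 2-fold above the mean of the other controls in 1050 features and below it in 964. The count of 6 held without the library of unclear pair. It also held without either L. ag. + L. av. library, though the features called were not all the same. Leaving out any other library changed the count. The calls were lost without either L. sa. + L. ag. library, which leaves 1 of the pair. The count was 0 without control replicate 1 or control replicate 2. Without control replicate 3 it was 1, a lower feature that is not among the 6. It was also 0 without L. sa. + L. av. replicate 2 and 4 without L. sa. + L. av. replicate 1, which enter only through the shared estimate of the spread.

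**Figure D3:**
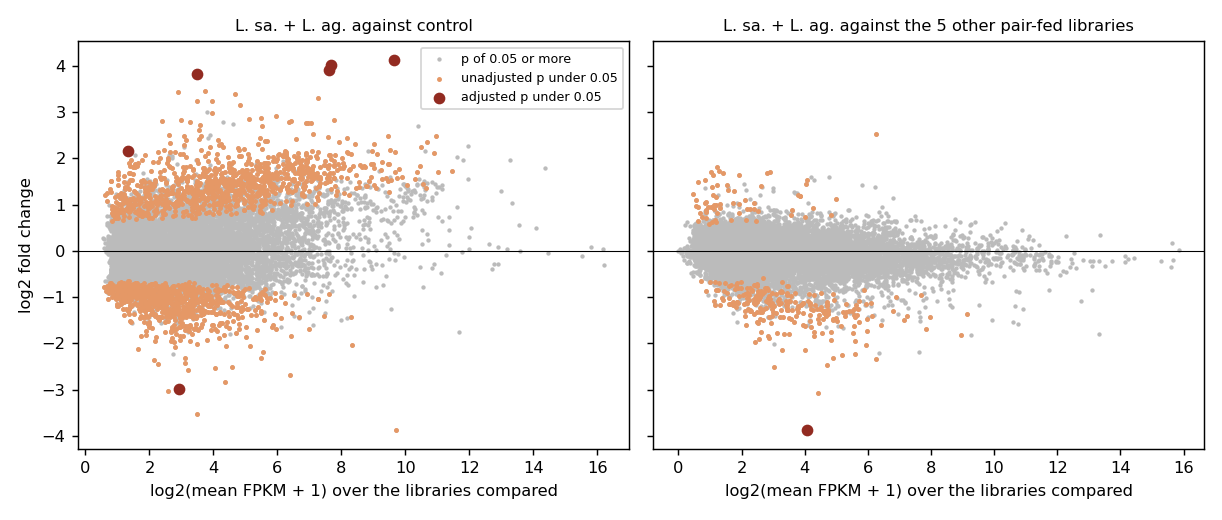
Log2 fold change of L. sa. + L. ag. against control (left) and against the 5 other pair-fed libraries (right), by the log2 of the mean FPKM + 1 of the libraries compared; each point is 1 of 11098 features. The left panel spreads to 1384 features at least 2-fold higher, the right to 57, and 6 and 1 features passed an adjusted p of 0.05.

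The 2 called features with the highest fold change were short and high in all 7 pair-fed libraries. ENSGALG00000017926, of 329 bp, was at 108, 101 and 103 FPKM in control and at 1684 and 1994 FPKM with L. sa. + L. ag., 17.7 times as high. The difference of 4.13 ± 0.48 log2 units (SE) passed the test, with a limma adjusted p of 0.018. The other pair-fed libraries ranged from 1015 to 3388 FPKM with a median of 1645 FPKM, around both values. The log2 difference from them was 0.08, with a 95% interval of -0.90 to 1.07.

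ENSGALG00000025557, of 287 bp, was at 26.6, 30.9 and 23.4 FPKM in control and at 621 and 323 FPKM with L. sa. + L. ag. Replicate 1 was the highest of all 10 libraries, and replicate 2 lay inside the range of the other pair-fed libraries, 278 to 559 FPKM. The log2 fold change against control was 4.01 ± 0.47 (SE, limma adjusted p = 0.018). Against the other pair-fed libraries it was 0.23, with a 95% interval of -0.74 to 1.19. These intervals allow a difference between the pairs of about 2-fold either way. Both calls against control were lost when any 1 of the 5 libraries was left out (limma adjusted p = 0.097 to 0.21), in a fit of only these libraries (0.051 and 0.069), with a replicate block (0.19 for each) and with no filter (0.066 and 0.069). They were also lost without L. sa. + L. av. replicate 2 (0.056 and 0.054), and that of ENSGALG00000025557 with quantile normalization (0.083). The remaining 3 features called higher had log2 fold changes of 2.16 to 3.91 and lengths of 322 to 5100 bp. In the other pair-fed libraries ENSGALG00000025650 ranged from 226 to 765 FPKM, around both L. sa. + L. ag. values. ENSGALG00000028016 ranged there from 1.92 to 23.7 FPKM, against 15.1 and 34.2 FPKM with L. sa. + L. ag. The feature of 5100 bp ranged there from 0 to 4.24 FPKM, against 3.72 and 3.58 FPKM. Its log2 difference from L. ag. + L. av. was 2.21 ± 0.28 (SE), which did not pass (limma adjusted p = 0.075). In control it was at 0.00731 to 0.103 FPKM, and ENSGALG00000028016 at 0.241 to 0.996 FPKM. Both met the filter on low values only through the 2 L. sa. + L. ag. libraries, where they are high. Their differences are thus descriptions.

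The change against control varied with length. The median log2 fold change was 0.34 for 283 features of up to 300 bp, 0.68 for 419 of 300 to 500 bp and 0.41 for 1623 of 500 to 1000 bp. It was 0.14 for 3324 features of 1000 to 2000 bp, -0.17 for 3614 of 2000 to 4000 bp and -0.30 for 1835 above 4000 bp, where the median of all features was -0.01. The groups did not overlap for 40.8% of features of 300 to 500 bp in the higher direction and 6.21% in the lower one. Above 4000 bp these shares were 8.07% and 28.7%, against 21.3% and 19.0% over all tested. After division by all recovered reads, the median of all features moved to -0.23 and that of 1000 to 2000 bp to -0.10, its sign turned, while the medians of 300 to 500 bp and above 4000 bp were 0.47 and -0.51.

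Control libraries, each set against the mean of the other 2, spread along the same lines. Control replicate 3 had medians of 0.35 up to 300 bp, 0.21 for 300 to 500 bp, 0.25 for 500 to 1000 bp and -0.16 above 4000 bp, and control replicate 1 had -0.27, -0.40, -0.26 and 0.22. The values of L. sa. + L. ag. replicate 1 for 500 to 1000 bp, 0.23, and above 4000 bp, -0.12, lay inside that spread. The value of replicate 2 up to 300 bp, 0.16, lay inside it too.

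The replicates differed in this pattern. For features of 300 to 500 bp the median difference from the control mean was 0.44 in replicate 1 and 0.92 in replicate 2, where other pair-fed libraries ranged from 0.49 to 1.29. Above 4000 bp it was -0.12 and -0.50, where they ranged from -0.50 to -0.19. Replicate 1 thus lay nearer to control than all 5 other pair-fed libraries in both classes. Among features of up to 300 bp the order turned: replicate 1 had the highest median of all 10 libraries, 0.71, and replicate 2 had 0.16, where other pair-fed libraries ranged from -0.18 to 0.53. In that class 113 of 283 features were at least 2-fold higher in replicate 1 than in replicate 2, and 44 were at least 2-fold lower. Replicate 1 also had the fewest of these 283 features at 0, 13, where replicate 2 had 58 and control libraries 23 to 30. The other pair-fed libraries had 22 to 96 of them at 0. Those libraries took no part in the filter that chose the features, while the L. sa. + L. ag. and control libraries did. The filter thus bears on these counts and medians, and they are descriptions.

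**Figure D4:**
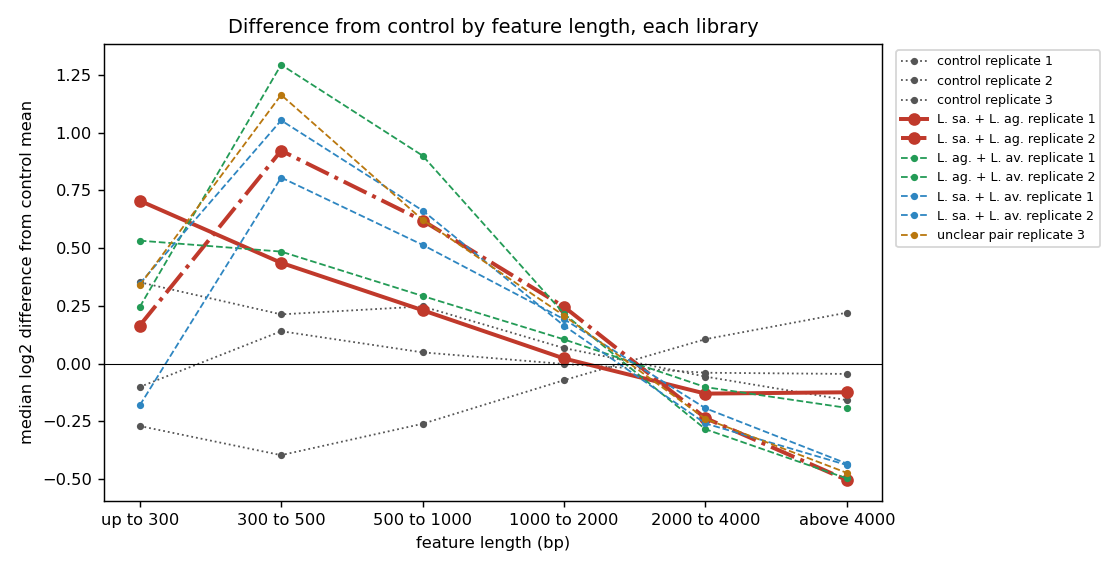
Median log2 difference of each library from the control mean (for a control library, from the mean of the other 2) by feature length in bp; each line is a library, thick for L. sa. + L. ag. replicates 1 (solid) and 2 (dash-dot). Replicate 2 runs with the other pair-fed libraries, and replicate 1 lies highest up to 300 bp (0.71) and nearest to control among pair-fed libraries above 4000 bp (-0.12).

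The change against control also followed abundance. Features were classed by their mean in the 5 other pair-fed libraries, which enter neither side of this comparison. Those libraries share pair feeding, so the classes are not free of any change common to pair-fed libraries. The median log2 fold change was 1.22 for 147 features above 1000 FPKM, 0.95 for 810 of 100 to 1000 FPKM and 0.42 for 2164 of 20 to 100 FPKM. It was -0.01 for 5 to 20 FPKM, -0.25 for 1 to 5 FPKM and -0.35 for 902 features under 1 FPKM. Features scarce in the other pair-fed libraries had to reach 1 FPKM in 2 of the 5 libraries compared, 3 of which are control. The filter thus bears on the medians of the scarce classes and they are descriptions. When 623 features under 1 FPKM were classed by control level instead, the order turned. Medians from the mean of the other pair-fed libraries were then -0.54 to -0.24 in control and 0.13 and 0.00 in L. sa. + L. ag. replicates 1 and 2. That choice of class bears on these medians as well. Replicate 1 showed 0.80 above 1000 FPKM and 0.54 from 100 to 1000 FPKM, and replicate 2 showed 1.61 and 1.42. Control libraries, each against the other 2, ranged from -0.86 to 0.57 above 1000 FPKM and from -0.16 to 0.15 for 100 to 1000 FPKM. Quantile normalization, which gives each library the same distribution of values, lowered the median above 1000 FPKM to 0.31 and that of 100 to 1000 FPKM to 0.33. Within each of the 6 length classes the features at 20 FPKM or more had the higher median. Features of 300 to 500 bp had a median of 1.32 at 20 FPKM or more (182 features) and 0.29 under 20 FPKM. Above 4000 bp the medians were 0.27 (159 features) and -0.34.

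Set against the other pair-fed libraries, these patterns were much smaller. The median log2 fold change was -0.18 for features of 300 to 500 bp, -0.14 for 500 to 1000 bp and 0.11 above 4000 bp. Its sign was the same under all 3 other scalings in these classes. Median-ratio scaling changed these medians little (-0.17, -0.13 and 0.12), so it adds little as an alternative. By control level, the median above 1000 FPKM (62 features) was -0.19, and 0.03 with quantile normalization. Replicate 1 gave most of the length difference: at 300 to 500 bp it lay 0.41 below the mean of the other pair-fed libraries, and replicate 2 lay 0.02 above it. L. ag. + L. av. replicate 1 lay 0.56 below the mean of the other 4, further than L. sa. + L. ag. replicate 1.

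Features with the authors' own identifiers were higher against control more often than Ensembl ones. Their median log2 fold change was 0.39 for 1351 features, against -0.07 for 9747 Ensembl features. The groups did not overlap in the higher direction for 32.7% of the former and 19.7% of the latter. They held 3.37% and 4.43% of all FPKM in L. sa. + L. ag. replicates 1 and 2, 1.55% to 3.41% in control and 3.43% to 4.93% in the other pair-fed libraries. Replicate 1 lay inside the control range and replicate 2 above it. Against the other pair-fed libraries their median was -0.08.

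The 10 features with the highest mean over all libraries took 45.6% of all FPKM in L. sa. + L. ag. replicate 1 and 20.3% in replicate 2. Control libraries ranged from 23.8% to 58.3% and the other pair-fed libraries from 24.8% to 35.8%. The 2 replicates thus lay above and below all 5 other pair-fed libraries, and the pair and control overlapped. Of all 19561 features, few were at 1 FPKM or more throughout 1 group and at 0 throughout the other. There were 4 features at 1 FPKM or more in both L. sa. + L. ag. libraries and at 0 in all control libraries, on 4 to 47 reads each. The opposite pattern was seen for 1 feature, on 3 to 12 reads. Features read under 1 FPKM or in only part of a group are not in these counts.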

How the data were processed

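The authors deposited 1 table of FPKM values for 19561 features in 10 libraries. Per the submitters' processing notes, CASAVA 1.8, HISAT2 and featureCounts 1.5.0-p3 were used. Genome build, annotation and the FPKM total were not given in the sources used here. Per the labels' protocols, EDTA released the crypts from duodenal pieces, and a TruSeq kit turned RNA purified by TRIzol and RNeasy into libraries. Libraries were grouped by their titles. The library whose title and description name different pairs had its own coefficient.

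Lengths and whole reads were recovered for all 17375 features above 0. The length taken was the shortest at which every value lay within 0.02 reads of a whole number. That 100.0% of values above 0 met this limit follows from the rule and is no check of the lengths. Features with few reads can be given too short a length, and with it too few reads. Reads without molecular identifiers are not independent molecules, so limits from counts cover counting error only. The totals behind the FPKM were 0.848 and 0.898 times the recovered reads in L. sa. + L. ag. and 0.755 to 1.28 times in control. In the other pair-fed libraries they were 0.572 to 1.10 times.

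Deposited values were tested on the log2(FPKM + 1) scale, which understates the change of low features, with limma 3.58.1 in R 4.3.3. Counts of features at least 2-fold apart use that scale too. There was 1 fit of all 10 libraries with a coefficient per group and a trended prior. Features at 1 FPKM or more in at least 2 of the 5 libraries of L. sa. + L. ag. and control were tested. Calls needed a 2-sided p under 0.05 after Benjamini-Hochberg adjustment over 11098 features. The contrast with the other pair-fed libraries took the mean of those 5. The fit was tested on simulated data. The design, members and lists were chosen with earlier results of these data known.

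With no gene symbols, the 35 gene lists and the cell type markers gave no result. The rule for naming took the 2 features with the highest and the 2 with the lowest log2 fold change among those called. Where none was called, as against L. sa. + L. av., it took them from the 10 higher and 10 lower with the lowest p, at least 2-fold apart, without overlap and with a mean of at least 5 FPKM. Same-numbered libraries of different diets did not deviate together in all pairs, and the fit was given no replicate block. That check does not exclude pairing by replicate number. Division by all recovered reads, voom weights, pooling of the 5 other libraries and leaving out each library of the other pairs were added after seeing the data.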

Additional observations from a re-analysis of the deposited data

Results flagged for a closer look

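ENSGALG00000028577 passed the direct test against L. ag. + L. av. (limma adjusted p = 0.017) and not that against L. sa. + L. av. (limma adjusted p = 0.056). The log2 difference of L. sa. + L. ag. was -4.34 from L. ag. + L. av. and -3.88 from the 5 other pair-fed libraries, with 0 and 8 reads in the 2 L. sa. + L. ag. libraries. Both of these calls were lost with a pseudocount of 0.1, voom weights, a replicate block and a fit of only the compared libraries.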

How the results depend on the processing

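Against control, the count of 6 called features was 0 in a fit of only the compared libraries, 0 with a replicate block and 19 after division by all recovered reads. It was 0 to 6 with 1 library of a named diet left out. Against the other pair-fed libraries, the count of 1 was 0 with a pseudocount of 0.1, in a fit of only the compared libraries, with a replicate block or with voom weights. It was 5 with no filter, 2 without the library of unclear pair, and 0 to 1 without 1 library of a named diet. Against L. sa. + L. av., the count of 0 was 4 with no filter, and 1 with a mean FPKM of at least 5, with library weights or after division by all recovered reads, and 0 to 1 without 1 such library. Against L. ag. + L. av., the count of 1 was 0 with a pseudocount of 0.1, with voom weights or in a fit of only the compared libraries, 4 with no filter, 2 with quantile normalization or after division by all recovered reads, and 0 to 2 without 1 such library. The cause was not tested. Where 1 library of a pair is left, that library is assumed to vary like the other groups. No named feature reversed its direction under these alternatives. Deviations of same-numbered libraries correlated at -0.31 to 0.47 across features. Each named pair has 2 libraries, whose deviations from their mean mirror each other. These correlations thus cannot decide whether replicate numbers pair the libraries. Without L. ag. + L. av. replicate 2 the feature called against that pair was another one. With the block the count against L. ag. + L. av. was 1, also another feature. Depth limits features of few reads, such as ENSGALG00000024758 and ENSGALG00000025390.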
